A study of Mus musculus with 10 samples.

Results

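The genes described here are 7 matrix metalloproteinases (Mmp2, Mmp3, Mmp9, Mmp10, Mmp12, Mmp13 and Mmp14) and 3 tissue inhibitors of metalloproteinases (Timp1, Timp2 and Timp3). They were picked by gene symbol, with earlier results of these data known. All 10 were found among the 24525 genes of the deposited expression table. RNA was measured in 5 colorectal tumours and 5 samples of adjacent tissue from mice given azoxymethane (AOM), a colon mutagen, and dextran sulfate sodium (DSS), an irritant of the colonic lining. The animals were male C57BL/6N, 7 weeks old and 18 to 20 g, of 1 inbred strain that the sample labels give as C57BL/6. A single dose of 12.5 mg/kg AOM was followed 1 week later by 3 cycles of 3 weeks, with 2% DSS in the water for 5 days and plain water for 16 days in each. Samples of both groups are labelled 10 weeks after AOM, so the age of 7 weeks cannot be that at sampling.

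The adjacent samples come from treated mice too, so the comparison is of tumour with AOM- and DSS-exposed tissue beside it. The protocols count 12 treated and 3 untreated mice, and no untreated animal is named as the source of a library. Titles number each group 1 to 5, but mouse number 1 is given as the source of each of the 10 libraries, whereas the series text is about mice in the plural. How many animals stand behind the libraries is therefore not settled, and the p-values measure only the spread between these samples. Each value is an FPKM, the fragments of a gene divided by its transcript length and by the library's mapped total, so levels can be set side by side between genes per unit of length. Depth, estimated from the steps between low values, was roughly 20900000 to 26600000 fragments per library. The summed level of 6 epithelial markers was 6479 to 8031 FPKM in adjacent samples and 3635 to 5741 FPKM in tumours, so RNA of epithelium was present in every library.

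Matrix metalloproteinases are zinc-dependent proteases that cut collagens, laminins, elastin and other proteins outside the cell. Most are secreted as inactive precursors whose propeptide is removed by plasmin, by furin-like convertases or by other members of the family, and TIMPs block the active site. In the colon, stromal cells, macrophages, neutrophils and injured epithelium are known sources during inflammation and repair. RNA levels report neither the amount of enzyme nor its activity.

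4 of the 7 protease genes, Mmp13, Mmp12, Mmp3 and Mmp10, lie together on chromosome 9. A motif is shared by the sequences just upstream of a start of each. For Mmp12 that start lies inside the annotated gene (7344381 to 7369499), and the window at its other start lacks the motif. Promoter windows of RefSeq (build GRCm38.p6, 250 bases before to 50 after each start) were at hand for 8 of the 10 genes, all but Mmp2 and Mmp9. The motif TGANTCA, which reads the same on both strands, includes TGACTCA and TGAGTCA, the forms bound by AP-1 (dimers of Fos and Jun proteins). Such a form was in a window of each of these 4 genes, and TGANTCA was in none of those of Mmp14, Timp1, Timp2 and Timp3. Of 32851 windows of the same length, 7.81% held TGANTCA with any middle base. The TATA motif TATAAA, searched on both strands, was in 13.6% of windows, and 1.54% held both motifs. The 150 bases upstream of a start of each of the 4 chromosome 9 genes are shown because they carry the AP-1 motif. Those of Timp1 and Mmp14 are shown because they do not. Capitals mark TGANTCA and TATAAA.
Mmp13, chr9:7272364-7272513, plus strand: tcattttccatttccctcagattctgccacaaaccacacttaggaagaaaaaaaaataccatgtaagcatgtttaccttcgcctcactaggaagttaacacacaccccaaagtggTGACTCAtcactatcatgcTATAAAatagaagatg
Mmp3, chr9:7445672-7445821, plus strand: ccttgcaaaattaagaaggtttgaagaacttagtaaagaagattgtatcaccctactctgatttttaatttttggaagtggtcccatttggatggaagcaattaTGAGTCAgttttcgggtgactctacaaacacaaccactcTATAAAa
Mmp10, chr9:7502192-7502341, plus strand: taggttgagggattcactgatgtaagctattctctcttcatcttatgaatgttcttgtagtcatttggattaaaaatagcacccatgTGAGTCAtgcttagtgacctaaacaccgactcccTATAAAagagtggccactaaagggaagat
Mmp12 (the second of its RefSeq starts), chr9:7347224-7347373, plus strand: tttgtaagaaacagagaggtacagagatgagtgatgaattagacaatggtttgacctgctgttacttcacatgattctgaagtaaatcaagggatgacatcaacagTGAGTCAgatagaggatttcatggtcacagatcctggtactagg
Timp1, chrX:20870016-20870165, plus strand: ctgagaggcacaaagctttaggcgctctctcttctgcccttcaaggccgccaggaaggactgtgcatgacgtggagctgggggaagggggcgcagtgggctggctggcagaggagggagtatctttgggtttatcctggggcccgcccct
Mmp14, chr14:54431448-54431597, plus strand: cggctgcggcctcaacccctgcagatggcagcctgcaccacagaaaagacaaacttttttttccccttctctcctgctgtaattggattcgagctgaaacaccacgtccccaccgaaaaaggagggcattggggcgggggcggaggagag
The AP-1 motif began 35 bases before the start in Mmp13, 46 in Mmp3, 63 in Mmp10 and 44 at the start shown for Mmp12, while the other Mmp12 window lacked it. TATAAA followed it 16, 7 and 29 bases before the start in Mmp13, Mmp3 and Mmp10. A match describes the letters only, and genes of a cluster with common ancestry are not independent cases. The motif AGGAAG, a core bound by Ets factors, was in the windows of 6 of the 8 genes and in 35.4% of all windows.

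All 10 genes were higher in tumours. The list was chosen with earlier results of these data known, so its counts and medians are descriptions of these genes. The test was limma on log2(FPKM + 1) across the 13016 genes that averaged at least 1 FPKM, and a gene is said to rise or fall where its Benjamini-Hochberg adjusted p was under 0.05. Of all genes tested, 57.2% were called higher and 19.3% lower, so a rise alone was common in this comparison. The median log2 change of the 10 genes was 2.36 (2.50 for the 7 proteases and 2.20 for the 3 inhibitors), against 0.35 over all genes tested. With each sample's median subtracted, which puts the median of all genes at 0.02, 34.5% of genes were called higher and 33.3% lower, and the 10 genes still all rose, with a median of 2.03. After quantile normalization 36.6% were called higher and 30.2% lower, and all 10 again rose, with a median of 2.06. In 8 of the 10 every tumour lay above every adjacent sample, an arrangement found in 46.5% of genes tested, with the opposite one in 14.3%. Mmp3 and Mmp13 were the exceptions, and all 10 were higher in each tumour than in the adjacent sample of the same number.

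**Figure D1:**
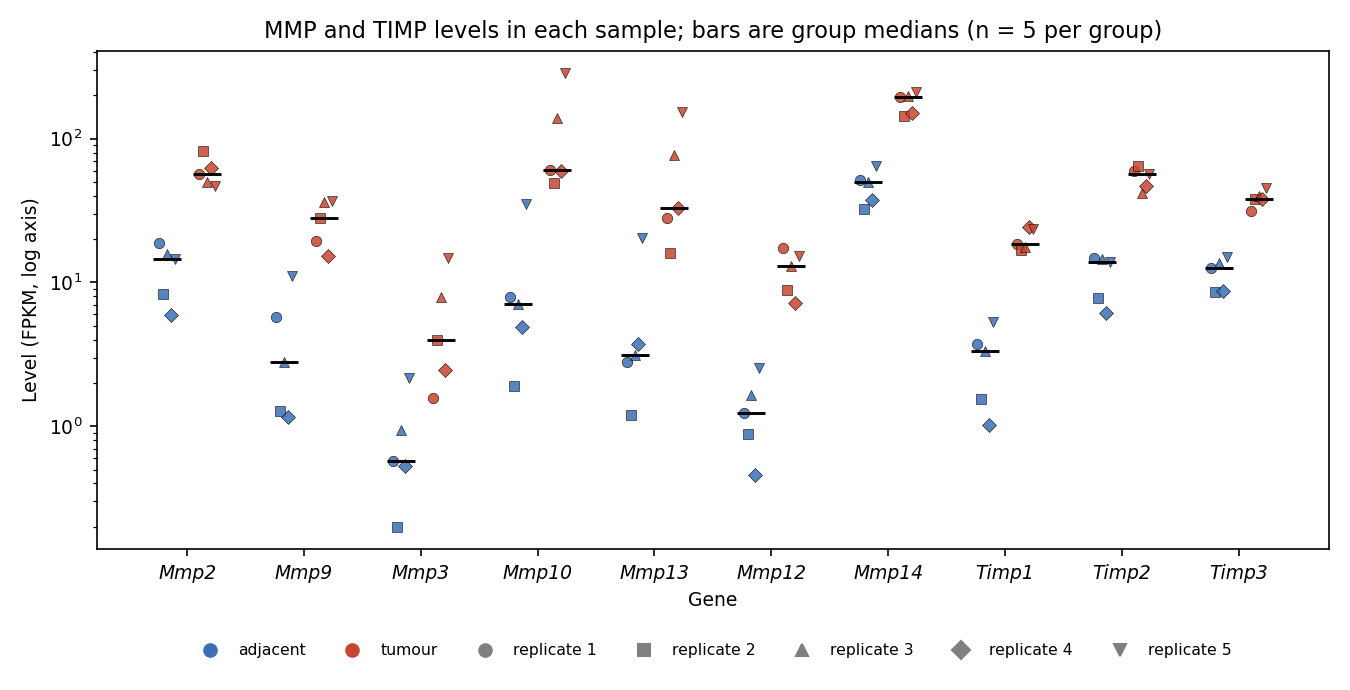
Level of each gene in each sample in FPKM on a log axis, with blue for adjacent tissue, red for tumour, marker shape for the replicate number and a bar for the group median (n = 5 per group). Tumour points lie above all adjacent points except for Mmp3 and Mmp13, where adjacent sample 5 (2.17 and 20.5 FPKM) lies above tumour 1 (1.57 FPKM) and tumour 2 (16.1 FPKM).

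The gelatinases Mmp2 and Mmp9, which cut denatured collagen and type IV collagen of basement membranes, rose 4.70-fold and 6.21-fold in mean FPKM. Mmp2 (chromosome 8, 92827291 to 92853420, GRCm38), mostly a product of fibroblasts, was at 18.9, 8.28, 15.7, 5.96 and 14.5 FPKM in adjacent samples 1 to 5 and at 56.8, 81.6, 49.7, 62.5 and 47.0 FPKM in tumours 1 to 5. The lowest tumour was 2.48 times the highest adjacent sample, and tumour 2 stood highest. Mean levels were 12.7 ± 5.38 and 59.5 ± 13.8 FPKM (SD, n = 5 each), and the log2 change was 2.22 with an SE of 0.28 (limma adjusted p = 6.63e-05). Mmp9 (chromosome 2, 164940780 to 164955850), stored in neutrophil granules and also made by macrophages, was at 5.72, 1.27, 2.78, 1.16 and 11.1 FPKM in adjacent samples and at 19.4, 28.2, 36.5, 15.3 and 37.1 FPKM in tumours. Adjacent sample 5 came within a factor of 1.39 of the lowest tumour, tumour 4, without reaching it. The log2 change of Mmp9 was 2.64 (SE 0.47, limma adjusted p = 0.00052).

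The stromelysins Mmp3 and Mmp10, which cut proteoglycans, laminin and fibronectin and can activate other proenzymes, differed more in level than in direction. Mmp10 (chromosome 9, 7502352 to 7510240), known in mouse and human gut as a gene of wound-edge epithelium, was at 7.98, 1.92, 7.11, 4.91 and 35.0 FPKM in adjacent samples and at 61.0, 49.1, 138, 59.1 and 284 FPKM in tumours. Tumours 3 and 5 stood far above the other 3, and adjacent sample 5 far above the other 4, yet the groups did not overlap. The mean was 11.4 ± 13.4 FPKM in adjacent samples and 118 ± 99.5 FPKM in tumours (SD, n = 5 each), and the log2 change was 3.46 (SE 0.67, limma adjusted p = 0.000844), which ranked 3 among the 13016 genes tested. Mmp3 (chromosome 9, 7445822 to 7455975), mainly a stromal gene, was at 0.57, 0.20, 0.94, 0.53 and 2.17 FPKM in adjacent samples and at 1.57, 3.96, 7.95, 2.45 and 14.7 FPKM in tumours. Tumour 1 lay below adjacent sample 5, so the groups overlapped. Mmp3 rose by 1.69 on the log2 scale (SE 0.47, limma adjusted p = 0.00742), a value that the added pseudocount of 1 holds down, since its mean FPKM was 6.95-fold higher. Only about 8 to 96 fragments stood behind it in an adjacent library, the fewest of the 10 genes. Of the 50-base stretches of Mmp3 transcripts 8.39% also occur in another gene, and of those of Mmp10 8.37% occur in Mmp3, so some reads of the pair could be exchanged.

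Mmp13, the main interstitial collagenase of the mouse (chromosome 9, 7272514 to 7283331), rose almost as far as Mmp10. It was at 2.80, 1.20, 3.12, 3.74 and 20.5 FPKM in adjacent samples and at 27.9, 16.1, 77.4, 33.0 and 152 FPKM in tumours. Tumour 2 fell below adjacent sample 5, and tumour 5 was 9.50 times tumour 2. The log2 change was 3.16 (SE 0.70, limma adjusted p = 0.0019), which ranked 7 among all genes tested. Mmp12, macrophage elastase (chromosome 9, 7344381 to 7369499), was at 1.23, 0.89, 1.64, 0.46 and 2.56 FPKM in adjacent samples and at 17.3, 8.82, 12.9, 7.19 and 15.2 FPKM in tumours. Its groups were well apart, the lowest tumour being 2.81 times the highest adjacent sample. It rose by 2.50 on the log2 scale (SE 0.28, limma adjusted p = 3.25e-05).

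Mmp14 (chromosome 14, 54431612 to 54445364) encodes a membrane-anchored protease that cuts fibrillar collagen at the cell surface and activates the Mmp2 precursor with the help of Timp2. It was the most abundant of the 10 genes in mean level in both groups. Its values were 51.3, 32.6, 49.9, 37.6 and 64.6 FPKM in adjacent samples and 195, 143, 197, 151 and 213 FPKM in tumours. The groups did not overlap, and the highest tumour was only 1.49 times the lowest. The mean of Mmp14 was 47.2 ± 12.6 FPKM beside tumours and 180 ± 30.9 FPKM in them (SD, n = 5 each), and it rose by 1.93 on the log2 scale (SE 0.18, limma adjusted p = 2.06e-05).

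The 3 inhibitors rose along with the proteases, and none of them overlapped between groups. Timp1 (chromosome X, 20870166 to 20874735), an inducible secreted inhibitor that also binds the Mmp9 precursor, was at 3.74, 1.55, 3.35, 1.02 and 5.27 FPKM in adjacent samples and at 18.5, 16.9, 17.5, 24.3 and 23.7 FPKM in tumours. The lowest tumour was 3.20 times the highest adjacent sample, the widest gap of the 10 genes. It rose by 2.51 (SE 0.28, limma adjusted p = 3.76e-05). Timp2 (chromosome 11, 118301069 to 118355740) was at 14.9, 7.74, 14.5, 6.14 and 13.8 FPKM in adjacent samples and at 59.4, 64.8, 41.7, 47.1 and 56.5 FPKM in tumours. Its order among adjacent samples was close to that of Mmp2, with samples 2 and 4 low in both. Timp2 rose by 2.20 (SE 0.24, limma adjusted p = 3.09e-05). Timp3 (chromosome 10, 86300372 to 86349506), which stays bound to the matrix and also inhibits ADAM proteases, was at 12.6, 8.61, 13.6, 8.73 and 15.0 FPKM in adjacent samples and at 31.3, 38.1, 39.7, 37.8 and 45.3 FPKM in tumours. It rose by 1.66 (SE 0.16, limma adjusted p = 1.92e-05), close to the 1.69 of Mmp3 on that scale, and its mean was 3.29-fold higher, the smallest fold of mean FPKM of the 10 genes.

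For Timp1 and Timp3 the annotation places the gene inside a synapsin gene, and the library kit does not mark strand. Timp3 shares 1733 exon bases with Syn3, which was at 0.52 to 0.74 FPKM in adjacent samples and 0.41 to 1.03 FPKM in tumours. Syn1, around Timp1, shares no exon base with it and was at most 0.55 FPKM in any sample. Both neighbours were thus far below the inhibitors. Of the 50-base stretches of Timp3 transcripts, 36.3% also occur in other genes, so its level depends on how shared reads were counted, and the sources used here do not say how.

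**Figure D2:**
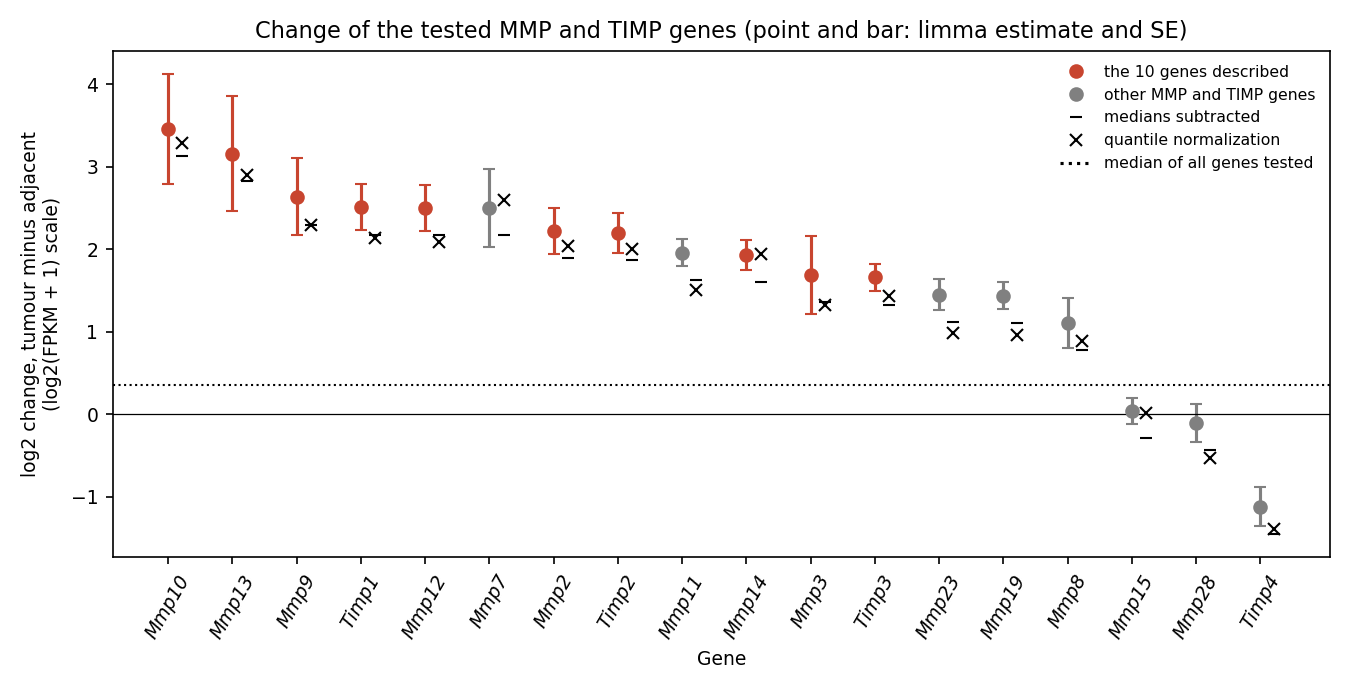
Log2 change (tumour minus adjacent, on the log2(FPKM + 1) scale) with its SE from limma for the 10 genes in red and the other tested genes of the family in grey; bars and crosses give the change with medians subtracted and after quantile normalization, and the dotted line is the median of all genes tested, 0.35. All 10 red points lie between 1.66 and 3.46.

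The spread within a group separated the genes. Among tumours the highest sample was 9.50, 9.38 and 5.79 times the lowest for Mmp13, Mmp3 and Mmp10. For Mmp9 and Mmp12 it was 2.42 and 2.41 times, and for Mmp2, Mmp14 and the 3 inhibitors between 1.44 and 1.74 times. Tumour 5 was highest for 6 of the 10 genes (Mmp3, Mmp9, Mmp10, Mmp13, Mmp14 and Timp3), while for Mmp2 it was the lowest tumour. Tumour 2 ran the other way, highest for Mmp2 and Timp2 and lowest for Mmp10, Mmp13, Mmp14 and Timp1. Among adjacent samples, number 5 was highest for 8 of the 10 genes, all but Mmp2 and Timp2. It stood 5.49-fold above the next adjacent sample for Mmp13 and 4.39-fold for Mmp10, against 1.10-fold for Timp3.

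**Figure D3:**
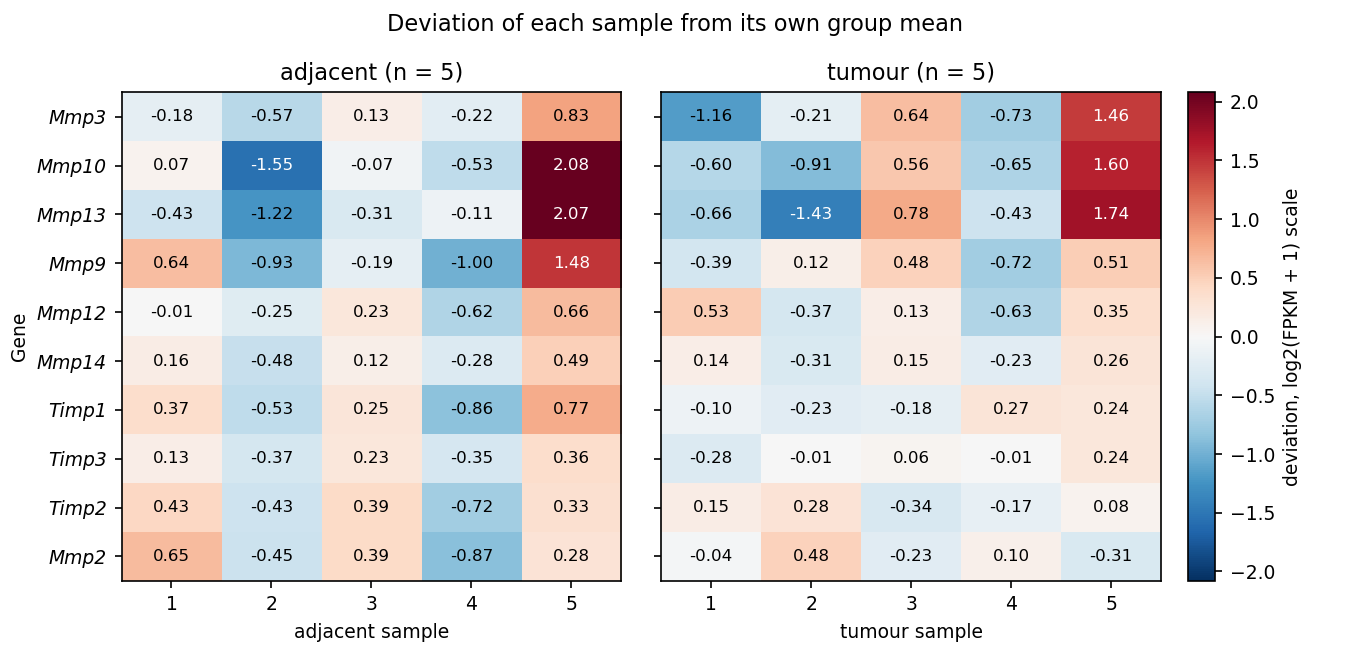
Deviation of each sample from the mean of its own group on the log2(FPKM + 1) scale, with rows for genes, columns for the 5 samples of each group, red for above and blue for below. Sample 5 of both groups is high for Mmp3, Mmp10 and Mmp13 (up to 2.08 in adjacent tissue and 1.74 in tumour), while Mmp2 in tumour 5 is at -0.31.

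Markers of fibroblasts, neutrophils, macrophages and endothelium were mostly higher in tumours as well, and those of mature epithelium and B cells mostly lower. The counts below stand beside 57.2% of all genes tested called higher and 19.3% called lower. With medians subtracted these shares were 34.5% and 33.3%. Among bulk samples, fewer cells of a type and less RNA per cell cannot be told apart. Of 7 fibroblast markers tested 6 rose, and the summed level of all 8 went from 39.4 to 91.2 FPKM in adjacent samples to 201 to 357 FPKM in tumours. The listed fibroblast marker too low to test went the other way without overlap. It was at 0.91 to 1.18 FPKM in adjacent samples and 0.23 to 0.69 FPKM in tumours. Tumour 2, the highest for Mmp2 and Timp2, had the highest fibroblast sum, and tumour 5, the lowest for Mmp2, the lowest. This was not particular to fibroblasts. Tumour 2 also had the highest sums of macrophage, endothelial, T cell, B cell, epithelial and mature colonocyte markers. Timp2 was not low in tumour 5, at 56.5 FPKM. Among adjacent samples, number 4 was lowest for the fibroblast sum, Mmp2 and Timp2, but the sum was highest in number 3 and both genes in number 1. Of 7 neutrophil markers, which include the family gene Mmp8, 6 rose; Ly6g fell by 2.64 (SE 0.50, limma adjusted p = 0.000739). The sum of all 7 was 103 to 350 FPKM in adjacent samples and 172 to 462 FPKM in tumours, so the groups overlapped. Without Ly6g the sum was 11.2 to 26.5 FPKM in adjacent samples 1 to 4 and 143 FPKM in adjacent sample 5. In tumours it was then 117 to 449 FPKM, with tumour 5 highest and tumour 2 lowest. For macrophages 7 of 8 markers rose, with sums of 75.1 to 155 and 253 to 403 FPKM, and for endothelium 6 of 6 (5 with medians subtracted), with sums of 10.9 to 24.0 and 42.6 to 63.6 FPKM. All 6 mature colonocyte markers fell, from sums of 2881 to 4768 FPKM to sums of 122 to 931 FPKM, and tumours 2 and 4 kept the most, at 931 and 482 FPKM. Of the 6 general epithelial markers 5 fell and 1 rose, the rise being lost with medians subtracted. Smooth muscle markers rose in 2 of 6 cases (1 with medians subtracted; sums of 12.8 to 51.4 and 37.3 to 69.8 FPKM), T cell markers in 1 of 5 (0 after quantile normalization; 5.87 to 10.3 and 9.64 to 26.4 FPKM), and of 3 B cell markers tested 2 fell (3 with medians subtracted; 5.44 to 45.1 and 1.26 to 11.4 FPKM). A marker listed at 0 in any sample was found for B cells only, and the part of these cell types in the changes of the 10 genes was not tested.

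The size of the rise of Mmp10, Mmp13 and Mmp3 moved with single libraries. Without adjacent sample 5, Mmp10 was at 3.98 and Mmp13 at 3.68 (limma adjusted p = 0.000183 and 0.000393). Leaving out tumour 5 gave 3.07 for Mmp10, 2.73 for Mmp13 and 1.33 for Mmp3 (limma adjusted p = 0.0107 for Mmp3). Leaving out adjacent sample 2, the lowest for these 3 genes in its group, gave 3.08, 2.86 and 1.55. Without tumours 2 and 4, Mmp13 was at 3.78 and Mmp3 at 2.00. The rise of every gene passed in each of these fits.

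Ratios within a sample do not depend on how the samples were scaled, and most overlapped between groups, so they are given as descriptions. Mmp2/Timp2 stayed close to 1, from 0.971 to 1.27 in adjacent samples and from 0.831 to 1.33 in tumours. Mmp9/Timp1 ran from 0.819 to 2.10 and from 0.631 to 2.08, a difference in mean log2 ratio of 0.11 against a pooled SD of 0.63. Mmp14/Timp2 was 3.44 to 6.12 in adjacent samples and 2.20 to 4.73 in tumours. The sum of the 7 proteases over the sum of the 3 inhibitors was 2.58 to 4.42 and 2.76 to 6.08, highest in sample 5 of each group. Mmp13/Timp1 varied most, from 0.749 to 3.90 and from 0.951 to 6.43. These 5 ratios all overlapped between the groups.

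Timp1/Timp3 was the ratio without overlap. It was 0.297, 0.180, 0.247, 0.117 and 0.353 in adjacent samples 1 to 5 and 0.591, 0.444, 0.442, 0.642 and 0.524 in tumours. The inducible inhibitor was therefore a larger share of the pair in every tumour, with a difference in mean log2 ratio of 1.23 (pooled SD 0.48). Mmp3/Mmp10 was 0.0714, 0.104, 0.132, 0.108 and 0.0619 in adjacent samples and 0.0257, 0.0806, 0.0575, 0.0414 and 0.0518 in tumours. Tumour 2 lay above adjacent samples 1 and 5 in this ratio, although each tumour was lower than the adjacent sample of its own number.

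**Figure D4:**
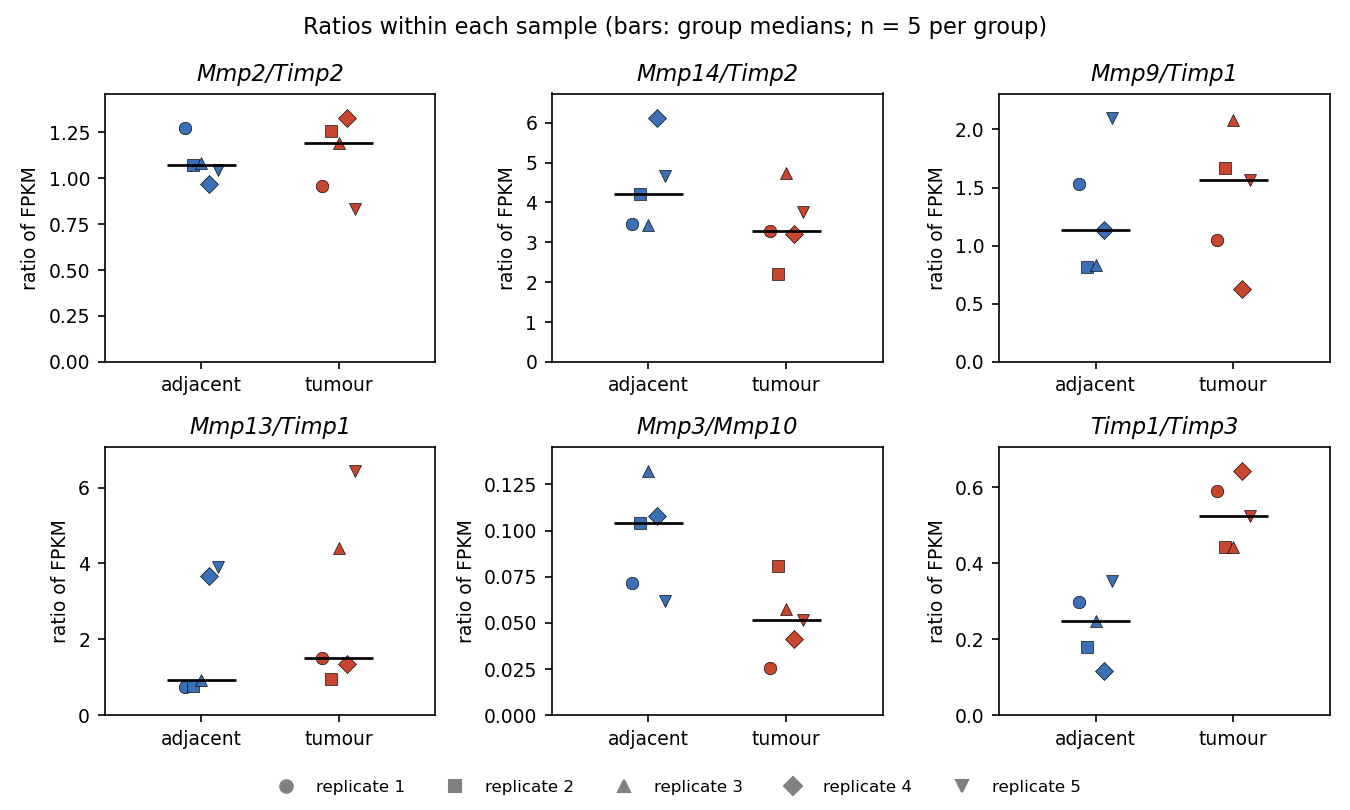
FPKM ratio of pairs of genes within each sample, with blue for adjacent tissue, red for tumour, marker shape for the replicate number and a bar for the group median (n = 5 per group). Timp1/Timp3 separates the groups (at most 0.353 in adjacent tissue, at least 0.442 in tumour), and the other 5 ratios overlap.

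In mean FPKM the order among tumours was Mmp14, Mmp10, Mmp13, Mmp2, Timp2, Timp3, Mmp9, Timp1, Mmp12 and Mmp3, and the ranges of all neighbours in that order overlapped. In adjacent tissue the order was Mmp14, Mmp2, Timp3, Timp2, Mmp10, Mmp13, Mmp9, Timp1, Mmp12 and Mmp3, with Mmp14 alone clear of the next gene. Mmp10 and Mmp13 thus stood behind Mmp2 and 2 of the inhibitors in adjacent tissue and ahead of them in the tumour means, although Mmp13 exceeded Mmp2 in only 2 of 5 tumours. By tumour median Mmp13 stayed behind, at 33.0 FPKM against 56.8 for Mmp2, 56.5 for Timp2 and 38.05 for Timp3. The tumour median of Mmp10 was 61.0 FPKM. Mmp14 made up 43.0% to 70.3% of the summed FPKM of the 7 proteases in adjacent samples and 27.8% to 51.5% in tumours, ranges that overlapped. The sum itself was 46.4 to 150 FPKM in adjacent samples and 331 to 764 FPKM in tumours, and that of the 3 inhibitors 15.9 to 34.1 and 99.0 to 126 FPKM.

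On chromosome 9, 10 genes of the family span 427 kb (7272514 to 7699585), and the 4 described here are interspersed with genes whose levels were near 0. In genome order the mean levels in adjacent tissue and tumour were 6.28 and 61.4 FPKM for Mmp13, 1.36 and 12.3 for Mmp12, 0.004 and 0.016 for Mmp1b, and 0.882 and 6.13 for Mmp3. Further along they were 0 in every sample for Mmp1a, 11.4 and 118 FPKM for Mmp10, 0.204 and 1.83 for Mmp8, 0.022 and 0.032 for Mmp27, 0.072 and 0.348 for Mmp20, and 136 and 625 for Mmp7. Neighbours within the cluster therefore differed widely in level. Mmp1a and Mmp1b, the mouse genes related to human MMP1, lie on either side of Mmp3, and both have an AP-1 motif in their windows. Mmp7 has it in a window too, while its other window lacked it. The Mmp20 window holds TGANTCA only as TGAATCA, which is not such a form. Mmp12 shares 157 exon bases with Mmp1b, which lies on the other strand.

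**Figure D5:**
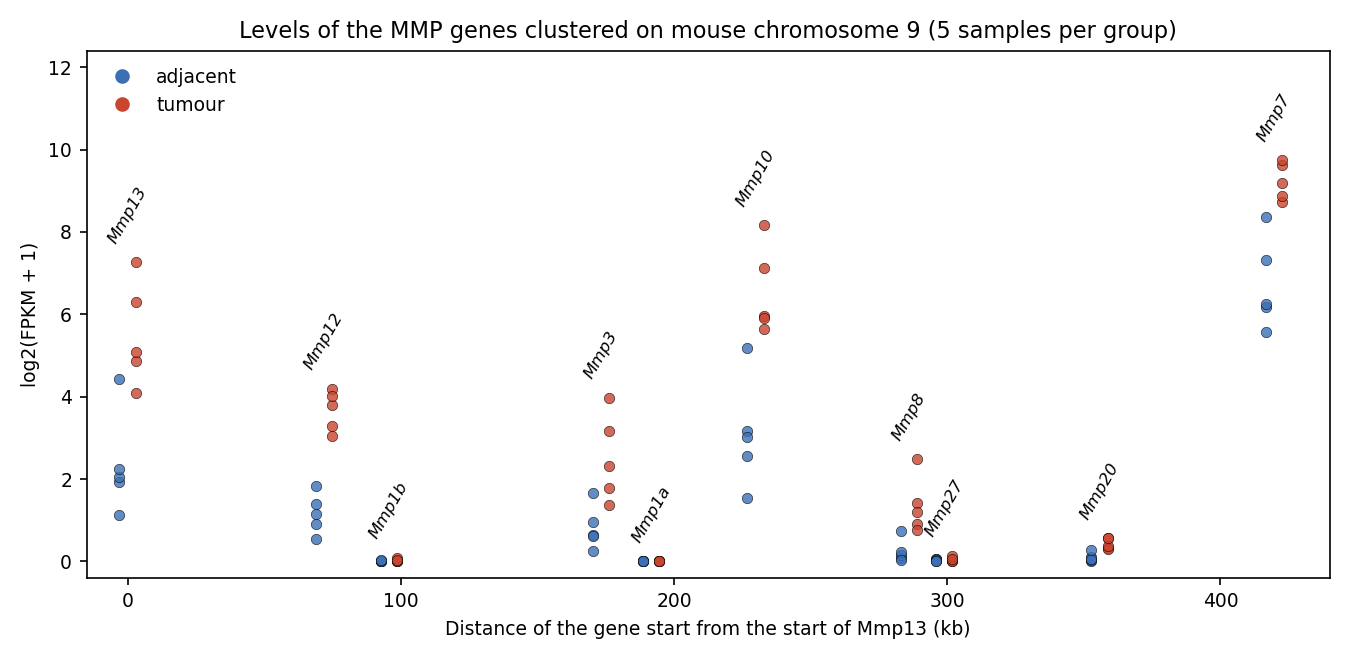
Level of each gene of the chromosome 9 cluster as log2(FPKM + 1) against the distance of its start from that of Mmp13 in kb, with blue points for the 5 adjacent samples and red for the 5 tumours. Mmp7, Mmp10, Mmp13, Mmp12, Mmp3 and Mmp8 are raised in tumour, and Mmp1a, Mmp1b and Mmp27 lie near 0 in both groups.

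Of the other 17 genes of the family (16 proteases and Timp4), 8 were abundant enough to test, and 5 rose and 1 fell. These counts are near the shares over all genes tested, 57.2% higher and 19.3% lower. With medians subtracted the counts were again 5 and 1, beside shares of 34.5% and 33.3%. Mmp8 reached the filter through its tumour level (means of 0.204 FPKM in adjacent samples and 1.83 FPKM in tumours). Timp4 reached it through its adjacent level (2.24 and 0.486 FPKM). Their place in these counts thus depends on the group where they are higher. The median log2 change of the 8 was 1.28, against 0.35 over all genes tested. Mmp7, matrilysin, a small protease of epithelial cells, was the most abundant family gene and rose by 2.50 (SE 0.47, limma adjusted p = 0.000735), with means of 136 ± 116 and 625 ± 191 FPKM (SD, n = 5 each). Mmp11, a stromal protease also called stromelysin 3, rose by 1.96 (SE 0.16), Mmp23 by 1.45 (SE 0.19), Mmp19 by 1.44 (SE 0.16) and the neutrophil collagenase Mmp8 by 1.11 (SE 0.30). The inhibitor Timp4 went against the 3 other inhibitors. It was at 1.27, 1.76, 3.13, 1.60 and 3.42 FPKM in adjacent samples and at 0.39, 0.06, 0.17, 1.10 and 0.71 FPKM in tumours, with no overlap, and fell by 1.12 on the log2 scale (SE 0.24, limma adjusted p = 0.00149). Timp4 overlaps Syn2 by 90 exon bases, while Syn2 was at 1.23 to 2.70 FPKM in adjacent samples and 0.28 to 0.59 FPKM in tumours, and reads of the shared bases cannot be told apart without strand. The membrane-type protease Mmp15, at 64.0 ± 18.7 and 64.3 ± 6.64 FPKM, and Mmp28, at 6.99 ± 1.06 and 6.88 ± 3.50 FPKM, did not pass (log2 change 0.04, 95% interval -0.31 to 0.39, and -0.10, interval -0.62 to 0.41; limma adjusted p = 0.83 and 0.70). Without tumour 2, the highest for Mmp28 at 13.0 FPKM, Mmp28 fell (-0.33, limma adjusted p = 0.0396). Exons of Mmp7, Mmp11, Mmp19 and Mmp28 also overlap those of other genes, by 123, 155, 1001 and 466 bases.

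Genes that act on these proteases mostly rose too, beside the 57.2% of all genes called higher. Of 15 tested genes of activation and clearance 11 rose and 2 fell, with a median log2 change of 1.74. Plat, tissue plasminogen activator, which makes plasmin, rose by 2.48 (SE 0.43), Serpine2, an inhibitor of such activators, by 2.60 (SE 0.45), and Lcn2, lipocalin 2, which is known to bind Mmp9, by 3.04 (SE 0.45). The convertase gene Pcsk5 fell by 1.08 (SE 0.23, limma adjusted p = 0.00137). Bsg, basigin, known to induce proteases in neighbouring cells, fell by 0.21 (SE 0.08, limma adjusted p = 0.0277), but this depended on the scaling, with -0.54 with medians subtracted (adjusted p = 0.000144) and 0.04 after quantile normalization (adjusted p = 0.624). Bsg also lost its call without any of 6 single libraries (adjacent samples 1, 4 and 5 and tumours 1, 3 and 4, limma adjusted p from 0.0512 to 0.074), with a change of -0.17 to -0.21 in those fits. Of 13 tested ADAM and ADAMTS genes, relatives that include targets of Timp3, 10 rose and 2 fell. Adam8 rose by 2.69 (SE 0.35), Adamts12 by 2.10 (SE 0.13) and Adam12 by 2.01 (SE 0.19), while Adamts15 fell by 1.44 (SE 0.26) and Adam15 by 0.74 (SE 0.09).

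Among 16 genes for matrix substrates 15 rose (14, and 1 fell, with medians subtracted), with a median log2 change of 2.42, close to the 2.36 of the proteases and inhibitors. Over all genes tested 57.2% were called higher, and 34.5% with medians subtracted, which also stands beside the inducers below. Spp1, osteopontin, rose by 3.69 (SE 0.50), Fn1, fibronectin, by 3.02 (SE 0.34) and Col1a1, a chain of type I collagen, by 3.00 (SE 0.28). Lamb3, a laminin chain of epithelial basement membrane, was the gene of this list that did not pass (log2 change -0.12, SE 0.15, limma adjusted p = 0.467), and with medians subtracted it fell (-0.45, adjusted p = 0.0292). Of 14 tested genes for cytokines and transcription factors known to induce metalloproteinases 13 rose, but 10 did so and 1 fell with medians subtracted. The cytokine genes Il11 and Il1b rose by 2.70 (SE 0.50) and 2.59 (SE 0.42), and Etv5, an Ets factor, by 2.15 (SE 0.22). The 4 AP-1 subunit genes on this list differed. Jun rose by 0.94 (SE 0.16, limma adjusted p = 0.000354) and also with either other scaling. Fosl1 rose by 0.87 (SE 0.21, limma adjusted p = 0.00349), but did not pass with medians subtracted (0.54, adjusted p = 0.0664) or after quantile normalization (0.45, adjusted p = 0.189). Junb rose by 0.40 (SE 0.13, limma adjusted p = 0.0151), but was at 0.07 with medians subtracted (adjusted p = 0.658). Fos did not pass, at 89.0 ± 59.5 FPKM in adjacent samples and 44.2 ± 34.3 FPKM in tumours (log2 change -1.12, SE 0.54, limma adjusted p = 0.0805), although each of the 5 tumours was lower than the adjacent sample of its number. Fos passed as a fall with medians subtracted (-1.45, adjusted p = 0.0393), without tumour 4 (-1.49, adjusted p = 0.017), without adjacent sample 5 (-1.35, adjusted p = 0.0492) and without tumours 2 and 4 (-1.79, adjusted p = 0.00717).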

How the data were processed

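RNA sequencing of polyadenylated RNA gave 10 libraries (5 tumours, 5 adjacent samples), made with a TruSeq RNA v2 kit and sequenced on an Illumina HiSeq, per the labels' protocols. The authors deposited 1 table of FPKM for 24525 genes, and its unit is given per the file headers. The submitters' processing notes list DESeq2 1.14.1 and edgeR 3.16.5, Salmon 0.8.2, RSEM 1.2.15, Cufflinks 2.2.1 and TopHat2 2.1.0, GATK and the build mm10, with no role given here, so which of them made the table is unknown. FPKM is a share of a library, so each value also depends on the other genes. A line of text in the table was left out.

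From these values, log2(FPKM + 1) was modelled on group alone with limma 3.58.1 under R 4.3.3 (intensity trend, robust empirical Bayes, two-sided, Benjamini-Hochberg adjustment over the 13016 genes that averaged at least 1 FPKM), and the script was tested on simulated data. Low genes change less on this scale than in FPKM. Mmp8 and Dcn are each in 2 of the lists. Depth (20900000 to 26600000 fragments) was estimated from steps between low values, using annotated transcript lengths, so fragment numbers are rough and no counting interval was computed. Library sums were 462009 to 484712 FPKM. Coordinates and overlaps are from GENCODE vM21 on GRCm38. The members and gene lists were chosen with earlier results of these data known. Named genes are the 10 members; from each other list up to 3 largest rises and 2 largest falls past the threshold; and genes overlapping a member. Lamb3, Fos, Fosl1, Jun, Junb, the remaining family genes and Syn2 were named after their values were seen. Alternatives were the pseudocount (0.1 or 5), the filter (none, or 5 FPKM), medians subtracted, quantile normalization, the replicate number as a block, no trend or robust step, and leaving out each library. The proteome was not used here, and 1 gene of the lists is not reported here by name.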

Additional observations from a re-analysis of the deposited data

Results flagged for a closer look

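Among the groups of 5 samples examined, 20 for the genes and 12 for the ratios (32 in all), adjacent sample 5 stood apart for Mmp10 and Mmp13. It was at 35.04 FPKM for Mmp10, against 7.98 FPKM in the next adjacent sample, a gap of 0.82 of the whole range of the group. For Mmp13 it was at 20.53 FPKM, against 3.74 FPKM, a gap of 0.87 of the range. A gap above 0.71 of the range is counted as standing apart for 5 samples. Chance gives this in about 1 in 20 groups of normally distributed values, and the 2 found among 32 are near that rate. The 32 groups share genes and samples, and both cases are the same library, so this comparison cannot decide whether they arose by chance. The rule was applied to FPKM, and on the log2(FPKM + 1) scale neither gap reaches 0.71 of the range. There adjacent sample 5 deviated from its group mean by 2.08 for Mmp10 and 2.07 for Mmp13. The next sample was at 0.07 and -0.11, and the lowest at -1.55 and -1.22. The same sample had the highest sum of neutrophil markers among adjacent samples, at 143 FPKM without Ly6g. With Ly6g it was at 350 FPKM, against 289 FPKM in adjacent sample 2. The part of neutrophils in the values of Mmp10 and Mmp13 was not tested.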

How the results depend on the processing

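All 189 alternative fits of the 10 genes kept the direction and the side of the threshold of the reported values, and Mmp3 was not tested with a mean of at least 5 FPKM, so 9 genes rose there. Over these fits the log2 change ran from 0.81 to 2.55 for Mmp3, from 2.89 to 3.98 for Mmp10, from 1.42 to 3.20 for Mmp12 and from 2.39 to 3.78 for Mmp13, with largest adjusted p of 0.0314 for Mmp3. The number of other family genes called higher was 5, but 9 with no filter on low values and 2 with a mean of at least 5 FPKM, where more or fewer genes were tested. The mean log2 ratio of Mmp3 to Mmp10 differed by -0.94, and by -1.78 with a pseudocount of 1 on both. Reversed signs were found for Mmp15 (-0.29 with medians subtracted, -0.01 without adjacent sample 4, and from -0.03 to 0.20 over the fits that leave out 1 library), for Mmp28 (0.03 without tumour 1, and -0.33 to 0.03 over such fits) and for Bsg (0.04 after quantile normalization); the cause was not tested. Mmp28 passed as a fall without tumour 2 (-0.33, limma adjusted p = 0.0396). The replicate number as a block gave 10 members and 5 other family genes higher, with 7534 genes higher and 2533 lower over all genes, and Fos lower (-1.12, limma adjusted p = 0.00658). With this block the SE fell for Mmp10 (0.67 to 0.23), Mmp13 (0.70 to 0.22) and the other members except Mmp2 (0.28 to 0.32). Deviations of like-numbered samples correlated at 0.02, 0.32, 0.02, 0.16 and 0.42 across genes, and those of unlike numbers at -0.44 to 0.32. Tumours 2 and 5 correlated best with their own number. Tumours 1 and 3 did so with adjacent sample 5 (0.21 and 0.20) and tumour 4 with adjacent sample 2 (0.32). This does not settle whether like numbers share an animal. The main fit took no pairs because the labels name mouse number 1 for every library. Leaving out tumours 2 and 4 was added after seeing the data. Depth limits Mmp3 most, at about 8 fragments in its lowest library.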
